A study of Rattus norvegicus with 8 samples.

Results

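The intermediate filament genes measured here were Nefm, Nefl, Nefh, Ina, Vim, Des, Nes, Krt8, Krt18 and Krt19, which were 10 of the 14737 rat genes that a RefSeq accession named on the array. A non-control probe was taken as a member when its accession mapped to one of the genes, which gave 11 of 30367 probes, 2 for Nes and 1 for each other gene. The list was chosen on the male and female values of Nefm, whose sex difference on these arrays was known when it was drawn up, so the values of Nefm are given as a description and without a p. RNA came from cortical kidney slices of untreated adult RCCHanTMWIST rats, 4 males and 4 females with 1 rat per array, and the study compared the sexes by gene expression profiling on one-colour Agilent arrays. The labels give no treatment, surgery or genetic change for either sex.

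Intermediate filaments are the ropelike fibres of the cytoskeleton that give a cell its resistance to stretch. They are built from long coiled-coil proteins that pair before they assemble, and each cell type uses its own set. Neurofilaments, made of a light, a medium and a heavy subunit with alpha-internexin, set the calibre of axons. Vimentin is the filament of mesenchymal and endothelial cells and of podocytes, desmin that of muscle, pericytes and mesangial cells, and keratins 8, 18 and 19 those of simple epithelia such as the renal tubule, where collecting ducts carry more of them than proximal tubules. Nestin is found in neural progenitors and, in the adult kidney, in podocytes.

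The 75th percentile of the signals was 5025 to 5944 on female and 5685 to 6547 on male arrays, and 73.8% to 79.1% of probes counted as well above background, the mark the image software gives to a spot clearly brighter than its surroundings. Every value below is a log2 signal from which the 75th percentile of its own array was subtracted, so 0 stands for that percentile and a difference of 1 for a doubling. Such values compare 1 probe between arrays and not different probes with each other. All 10 proximal tubule markers were detected, among them Slc34a1, the phosphate transporter, at 5.82 ± 0.07 in females and 5.74 ± 0.10 in males (SD, n = 4 each). The urothelial genes Upk1a, Upk1b and Upk3a were well above background on 8 of 8 arrays as well, but Upk2 on 0 and Krt20 on 1. The labelled cortex was thus not shown to be free of such transcripts, and their source was not tested. A slice holds many cell types, so fewer cells of a type and less RNA per cell cannot be told apart.

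Of the 10 genes, 7 had a probe well above background on at least 4 arrays and entered the fit of all 23425 such probes with limma. Those were Nefm, Vim, Des, Nes, Krt8, Krt18 and Krt19, each of them well above background on 8 of 8 arrays. Nefl and Ina were well above background on no array and Nefh on 1, so these 3 genes were not tested. To be called sex-dependent, a probe needed both a log2 fold-change of 1 or more in size and a Benjamini-Hochberg adjusted p below 0.05. Of all tested probes 1.89% met this rule, 0.798% with higher and 1.09% with lower values in males. Nefm was the 1 gene of the list that met it, with higher values in males, and nothing is read from this count because Nefm chose the list. Of the 6 other tested genes, 0 met the adjusted p alone, against 8.06% of all tested probes (3.39% higher and 4.67% lower in males). An unadjusted p below 0.05 was reached by 25.6% of all tested probes, and by Vim and Krt18 among these 6 genes.

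**Figure D1:**
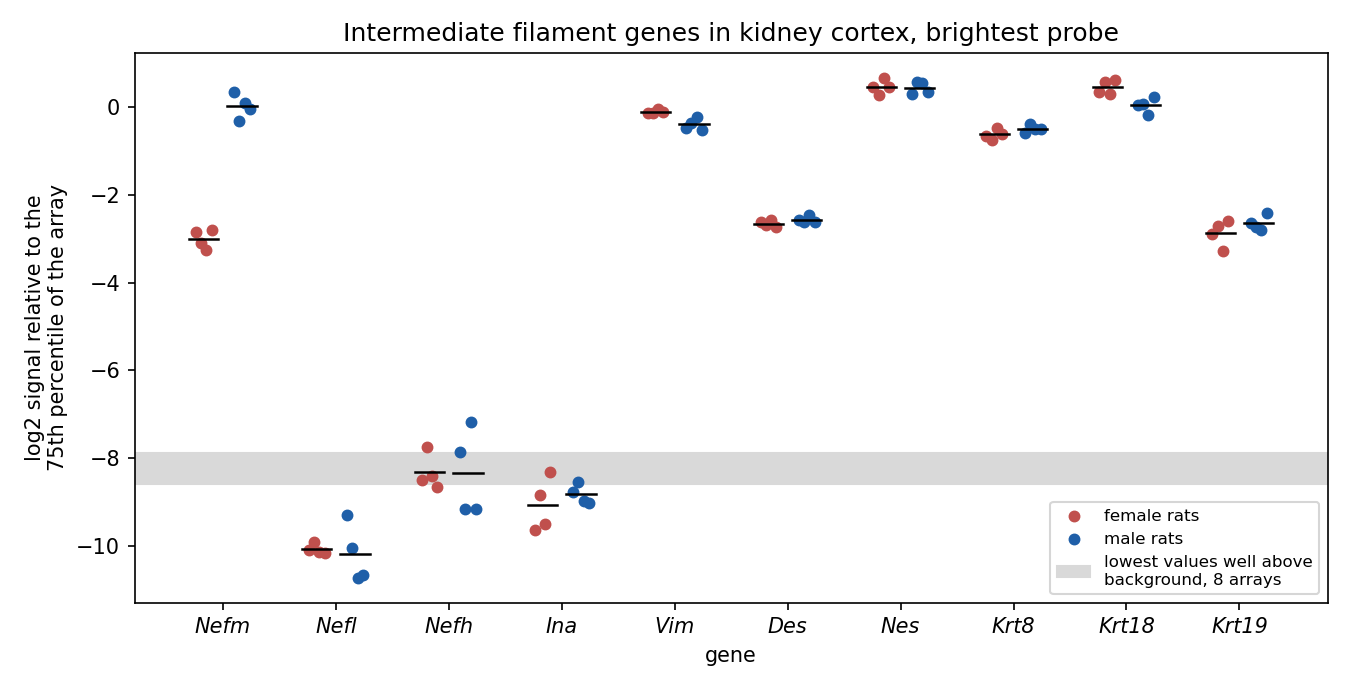
Log2 signal relative to the 75th percentile of the array (y axis) for the brightest probe of each of the 10 genes (x axis), with 1 point per rat, red for the 4 females and blue for the 4 males, black lines for the means, and a grey band from −8.60 to −7.88 that spans the dimmest values still well above background on the 8 arrays. The 4 male values of Nefm lie near 0 and the 4 female values near −3, while Nefl, Nefh and Ina lie within or below the band or just above it.

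Nefm, the medium neurofilament subunit, was higher in the kidneys of all male rats. Its probe A_42_P752336 read −2.84, −3.10, −3.25 and −2.81 in females 1 to 4 and 0.34, −0.33, 0.10 and −0.06 in males 1 to 4. The lowest male thus lay 2.49 above the highest female. The means were −3.00 ± 0.21 in females and 0.01 ± 0.28 in males (SD, n = 4 each), a difference of 3.01 with a standard error of 0.16, or 8.06-fold. A difference of that size or larger in either direction was found in 0.324% of the tested probes. This share describes the size of the difference and is no test, because Nefm chose the list.

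The probe was printed 10 times on each array, so each of these values rests on up to 10 spots. All spots repeat the same probe, and whether this probe detects the Nefm transcript alone was not tested. Before scaling, the mean signal of its spots was 788, 589, 586 and 847 in females 1 to 4 and 8266, 4535, 6887 and 6186 in males 1 to 4. The signal was well above background in both sexes, so the female value is a measured level and not a floor. Within an array the log2 signals of the spots had an SD of 0.055 to 0.083 in females and of 0.032 to 0.046 in males, less than the SD between rats of the same sex. The software marked 2 spots as outliers, both on the array of male 3, and these were left out. The arrays lay in 2 rows of 1 slide, each row with 2 arrays of each sex, and the difference was 3.17 in the first row and 2.85 in the second.

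**Figure D2:**
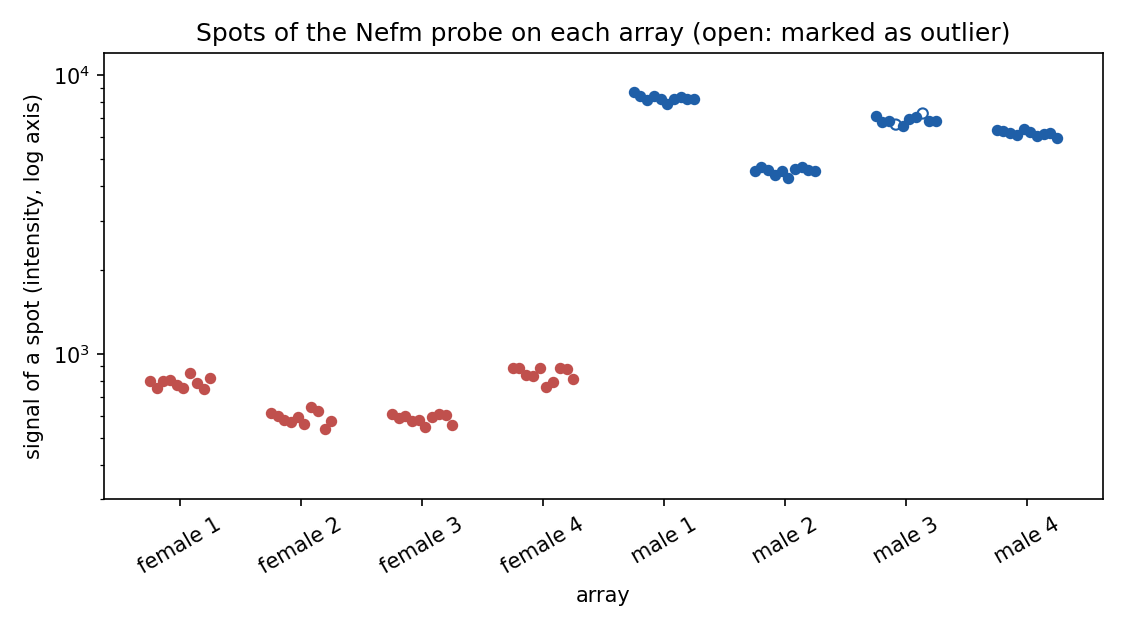
Signal intensity of the single spots of the Nefm probe (log y axis) on the arrays of the 4 female (red) and 4 male (blue) rats (x axis), with 10 spots per array and open circles for the 2 spots marked as outliers. The spots of an array lie close together, and the spots of every male array lie above those of every female array.

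The other neurofilament genes were at or near background. Nefl, the light subunit, on which the heavier subunits assemble in axons, read −10.1, −9.91, −10.1 and −10.2 in females 1 to 4 and −9.30, −10.0, −10.7 and −10.7 in males 1 to 4, well above background on 0 of 8 arrays. Ina, which encodes alpha-internexin, read between −9.62 and −8.31 in females and between −9.03 and −8.53 in males, also well above background on 0 of 8 arrays. Of its 2 spots, 1 was well above background in female 4 and in males 1, 2 and 4. The same held for 1 of the 2 spots of Nefl in male 1. Nefh, the heavy subunit, read −8.50, −7.75, −8.40 and −8.66 in females 1 to 4 and −7.85, −9.16, −7.18 and −9.15 in males 1 to 4, and was well above background in male 1 alone, although 1 of its 2 spots passed in male 3 and in females 2 and 3. The lowest value marked well above background on an array was −8.60 to −7.88, so for these 3 probes the arrays give an upper limit and no order of the sexes, and no fold-change is given. The spots of these probes spread widely, with an SD of up to 1.95 on the log2 scale for Nefh and 1.72 for Nefl on a male array. Each of these genes had 1 probe, and whether it detects the transcript in nerve was not tested.

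Nefl and Nefm are neighbours on rat chromosome 15 in the assembly GRCr8. Among protein-coding genes the order there is Gnrh1, Dock5, Nefl, Nefm, LOC134482139 and Adam7. LOC134482139 overlaps Nefm in the annotation and has no probe named here, which leaves 5 genes with values. Gnrh1, the precursor of gonadotropin-releasing hormone, read between −5.30 and −4.66 in females and between −5.30 and −4.98 in males. Adam7, a membrane metalloproteinase-like protein, read between −0.60 and −0.33 in females and between −0.74 and −0.22 in males. The ranges overlapped for both genes, and their log2 fold-changes were −0.11 (95% interval −0.47 to 0.25, adjusted p = 0.704 by limma) and −0.04 (95% interval −0.31 to 0.23, adjusted p = 0.875 by limma).

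Dock5, an activator of the small GTPase Rac and the nearest gene on the other side of Nefl, had its higher values in females. Its probe, named only by the study's own list of sex-dependent probes, read 0.85, 1.01, −0.03 and −0.70 in females 1 to 4 and −1.17, −1.33, −1.48 and −1.27 in males 1 to 4. The lowest female lay 0.47 above the highest male, and the log2 fold-change was −1.60 with a standard error of 0.35, or 3.03-fold lower in males. The probe met the calling rule but no longer did so without a filter on dim probes, with the replicate number as a block, or when any single array other than that of female 4 was left out. Because the list that names the probe holds sex-dependent probes alone, its sex difference is a description.

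**Figure D3:**
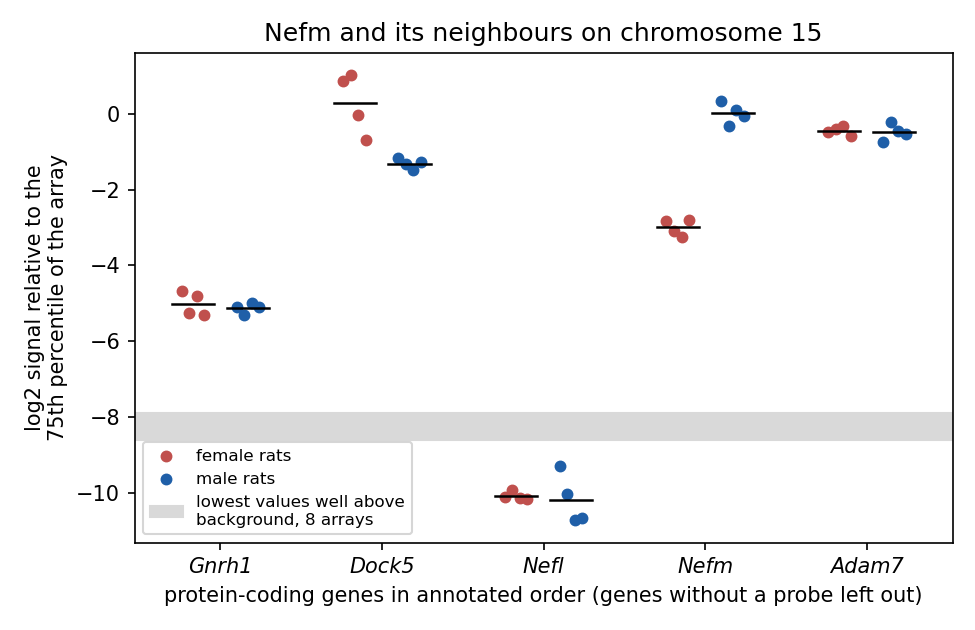
Log2 signal relative to the 75th percentile of the array (y axis) for Nefm and its annotated neighbours on chromosome 15 in gene order (x axis), with 1 point per rat, red for the 4 females and blue for the 4 males, black lines for the means and a grey band from −8.60 to −7.88 for the lowest values well above background. Nefm is higher and Dock5 lower in every male than in every female, while the ranges of Gnrh1 and Adam7 overlap and Nefl lies below the band.

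Genes of nerve endings and of the adrenal medulla, which also carry neurofilaments, were counted beside Nefm. Of the 17 such genes with a probe, 10 were tested, 0 were called sex-dependent and 1 met the adjusted p alone. Of all tested probes 8.06% met the adjusted p, so this count is not read as a result about the list. The median log2 fold-change was 0.06 against −0.04 over all tested probes. Chga, Chgb, Dbh, Snap25 and Syt1, which encode the granins, the noradrenaline-forming enzyme and proteins of vesicle release, were well above background on no array. Th and Pnmt, enzymes of catecholamine synthesis, the neuropeptide gene Npy and the neuronal genes Uchl1, Map2, Gap43 and Scg2 were well above background on 8 of 8 arrays, and none passed the test, with log2 fold-changes from −0.33 (Map2) to 0.13 (Th). Tubb3, a tubulin of neurons, was the gene that met the adjusted p (log2 fold-change 0.67, adjusted p = 0.0383 by limma). After normexp background correction the log2 fold-change of Tubb3 was 0.34 (adjusted p = 0.111 by limma). It was 0.81 after quantile normalization (adjusted p = 0.0119 by limma) and 0.80 in the authors' log2 values (adjusted p = 0.0125 by limma). Without a filter on dim probes the adjusted p of Tubb3 was 0.0683 by limma, and leaving out single arrays raised it to as much as 0.0933. Mapt, the axonal microtubule protein and the brightest of the list, had a log2 fold-change of 0.20. The summed level of the list, in multiples of the 75th percentile, was 7.95 to 11.5 in females and 9.45 to 10.9 in males, so the sexes overlapped. Mapt made up most of that sum, which therefore says little of the other genes. The summed levels of the lists below are likewise led by their brightest genes.

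The genes whose values were most like those of Nefm over the 8 arrays were found by Pearson correlation of all named, tested probes, as a description over arrays that share the 2 sexes. They were Sema5a, an axon guidance protein (r = 0.996), Stxbp5, a regulator of vesicle fusion (0.993), Ptdss1, a phosphatidylserine synthase (0.991), Agtrap, which binds the angiotensin receptor (0.991), and Abcc2, an efflux transporter of the proximal tubule (0.989). All 5 were higher in males, by 1.21, 0.82, 0.41, 0.49 and 0.40 on the log2 scale in that order, so none changed as much as Nefm. In Nefm, Sema5a, Ptdss1 and Agtrap male 2 was the lowest of the males and male 1 the highest. That order did not hold in Stxbp5 or Abcc2, and all 5 genes were picked for their likeness to Nefm.

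Vim, which encodes vimentin, had slightly lower values in males, a difference that did not pass the adjusted p. Its probe A_42_P509365, also printed 10 times, read −0.13, −0.13, −0.04 and −0.11 in females 1 to 4 and −0.48, −0.36, −0.23 and −0.53 in males 1 to 4. Every male lay below every female, by at least 0.09. The log2 fold-change was −0.29 with a standard error of 0.08 (95% interval −0.48 to −0.11, adjusted p = 0.0626 by limma), and a two-sided exact permutation test gave p = 0.0286, the smallest that 4 against 4 allow. Such separation of the sexes was found in 18.5% of all tested probes.

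The difference was −0.42 in the first slide row and −0.16 in the second, and the adjusted p fell to 0.0371 with an intensity trend and robust prior and to 0.0383 without the array of male 3. Before scaling, the mean signal of the Vim spots was 4583 to 5518 in females and 4385 to 5480 in males, so the sexes overlapped until each array was set against its own 75th percentile. Cells that carry vimentin were followed by their marker genes. The summed level of 8 podocyte genes was 16.2 to 17.3 in females and 14.0 to 14.8 in males. Podxl and Ptpro were lower in males at the adjusted p alone, beside 4.67% of all tested probes. With 2 of 8 genes this count is too small to be read as a result. The summed level of the 8 measured endothelial genes was 28.0 to 30.5 and 25.6 to 27.9, with 0 of 8 past the test. Fibroblast genes overlapped between the sexes at 10.9 to 12.5 and 9.71 to 11.4, with 0 of 7 past the test. The part of these cells in the Vim difference was not tested.

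Des, the desmin gene, read −2.62, −2.69, −2.59 and −2.73 in females 1 to 4 and −2.57, −2.62, −2.45 and −2.62 in males 1 to 4. The sexes overlapped, and the log2 fold-change was 0.09 (95% interval −0.07 to 0.25, adjusted p = 0.452 by limma), an interval that holds no change beyond 0.25. Among markers of cells that carry desmin, of 11 smooth muscle and pericyte genes and of 6 tested mesangial genes, 0 passed the test, with medians of −0.07 and −0.01. Summed levels of the smooth muscle and pericyte genes were 5.41 to 6.25 in females and 5.11 to 6.33 in males. Of the striated muscle genes, the myosins Myh1, Myh2 and Myh4 were well above background on no array, while Mb, Tnni2, Acta1 and Ckm were so on 8 of 8 and Tnnt3 on 4, with 0 of these 5 past the test.

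Nes, the nestin gene, did not differ detectably between the sexes at either of its probes. The brighter probe, A_44_P1020422, read 0.46, 0.28, 0.66 and 0.46 in females 1 to 4 and 0.31, 0.56, 0.55 and 0.34 in males 1 to 4. Its log2 fold-change was −0.03 (95% interval −0.26 to 0.21, adjusted p = 0.902 by limma), with −0.24 in the first slide row and 0.18 in the second. The other probe, A_64_P148321, was well above background on 8 of 8 arrays too and had a log2 fold-change of −0.10 (95% interval −0.39 to 0.19, adjusted p = 0.671 by limma).

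Keratins 8 and 18 are the obligate partners of simple epithelial filaments. Krt18 had lower values in males, without passing the adjusted p, while the values of Krt8 overlapped between the sexes. Krt18 on probe A_64_P115506 read 0.33, 0.56, 0.29 and 0.61 in females 1 to 4 and 0.04, 0.07, −0.19 and 0.23 in males 1 to 4. Every male lay below every female, although the gap was only 0.06. The mean signal of the Krt18 spots before scaling was 6797 to 9053 in females and 5619 to 7564 in males, so the sexes overlapped then. The log2 fold-change was −0.41 with a standard error of 0.11 (95% interval −0.67 to −0.15, adjusted p = 0.0663 by limma), with −0.31 and −0.51 in the slide rows and a two-sided exact permutation p = 0.0286. The adjusted p was 0.0375 with an intensity trend and robust prior.

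Krt8 on probe A_42_P784063 read −0.66, −0.75, −0.47 and −0.61 in females 1 to 4 and −0.59, −0.38, −0.51 and −0.51 in males 1 to 4, so the sexes overlapped. The mean signal of the Krt8 spots before scaling was 2984 to 4015 in females and 4354 to 4553 in males, without overlap. Its log2 fold-change was 0.13 (95% interval −0.06 to 0.32, adjusted p = 0.371 by limma), with −0.01 in the first slide row and 0.27 in the second. Krt19, the small keratin of ducts, read between −3.28 and −2.60 in females and between −2.80 and −2.42 in males, with a log2 fold-change of 0.22 (95% interval −0.13 to 0.58, adjusted p = 0.415 by limma). Collecting duct markers stood beside Krt18: their summed level, led by Aqp2, was 80.5 to 98.0 in females and 70.4 to 80.3 in males, with 0 of 9 genes past the test and a median log2 fold-change of −0.24. Aqp3 alone of these genes had its higher mean in males (log2 fold-change 0.31, adjusted p = 0.243 by limma). The part of collecting duct cells in the Krt18 difference was not tested. Among genes of the papilla and urothelium, Upk2 and Slc14a2 were well above background on no array and Krt20 on 1. Upk1a, Upk1b, Upk3a and Krt5 were so on 8 of 8 arrays and did not pass the test. Of the 5 tested genes of the list 1 was called, beside 1.89% of all tested probes, too small a count to be read as a result. The called gene was the water channel Aqp4 (log2 fold-change −1.19, adjusted p = 0.0235 by limma), whose call was lost without female 1, male 1 or male 2. Its other probes gave −1.13 and −0.26, so the probes of Aqp4 disagreed in size.

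RefSeq promoter entries of GRCr8 matched 6 of the 10 genes. The bases that precede the annotated start of Krt8, Krt18 and Vim are printed here. The keratins are partners, and Krt18 and Vim were the genes beside Nefm whose scaled values did not overlap between the sexes. Each run goes from base 250 to base 76 before the start, 5′ to 3′ on the strand of the gene, with capitals for 3 motifs found on either strand. The motifs were the TATA box, written TATAAA, the box named after its letters CCAAT, and the GC box, written GGGCGG.
Krt8, chr7:135010415-135010589, minus strand: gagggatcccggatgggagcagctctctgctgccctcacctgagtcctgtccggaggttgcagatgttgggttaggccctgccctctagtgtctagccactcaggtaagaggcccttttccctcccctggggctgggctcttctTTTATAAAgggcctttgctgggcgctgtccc
Krt18, chr7:135035918-135036092, plus strand: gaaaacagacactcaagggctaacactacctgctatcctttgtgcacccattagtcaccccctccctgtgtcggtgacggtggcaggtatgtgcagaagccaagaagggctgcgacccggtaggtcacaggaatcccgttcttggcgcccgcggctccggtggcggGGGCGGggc
Vim, chr17:81577011-81577185, plus strand: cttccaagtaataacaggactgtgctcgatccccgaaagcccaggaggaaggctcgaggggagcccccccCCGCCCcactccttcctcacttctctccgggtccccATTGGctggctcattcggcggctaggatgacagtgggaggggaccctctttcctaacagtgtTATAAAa

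Krt8 and Krt18 thus begin on opposite strands of the same region of chromosome 7. TATAAA was found in Krt8, where copies on the 2 strands overlap at 106 and 104 bases before the start, and in Vim at 82 bases, and it was found in 8.79% of 33469 promoter windows of the same length. GGGCGG was found in Krt18 at 84 bases and in Vim at 180 bases before the start, and in 20.1% of all windows. CCAAT was found in Vim at 144 bases, and in 25.2% of all windows. The AP-1 site, written TGANTCA, was looked for as well and was in none of the 3 windows, while 4.54% of all windows held it. All distances are counted from the annotated start, and where transcription begins was not measured here. A match of letters is a description and not a binding site.

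Among other intermediate filament genes, 28 of 39 had a probe and 18 were tested, and 0 were called sex-dependent. The adjusted p alone was met by 2 of the 18, both higher in males, beside 8.06% of all tested probes in either direction and 3.39% higher in males, a background too close for a count this small to be read as a result. Krt7, a keratin of ducts and the brightest of these genes, was at 1.98 ± 0.07 in females and 2.40 ± 0.18 in males (SD, n = 4 each), a log2 fold-change of 0.41 with a standard error of 0.10 (adjusted p = 0.0417 by limma). Lmna, which encodes the lamins of the nuclear envelope, had log2 fold-changes of 0.32 (adjusted p = 0.0261 by limma) and 0.51 (adjusted p = 0.0192 by limma) at its 2 probes. Both results depended on the processing: the adjusted p was 0.0752 for Krt7 and 0.0524 for Lmna at its brighter probe without a filter on dim probes, and leaving out single arrays raised it to as much as 0.102 and 0.0715.

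Across the 18 tested genes the median log2 fold-change was 0.09, against −0.04 over all tested probes, and the summed level of the list was 7.74 to 8.22 in females and 9.26 to 11.0 in males, led by Krt7. Prph, the neuronal filament peripherin, differed by 0.07 (adjusted p = 0.831 by limma), and Synm, the muscle filament synemin, by −0.04 (adjusted p = 0.887 by limma) at its brighter probe. Gfap, the astrocyte filament, and the keratin genes Krt13, Krt16, Krt17 and Krt24 were among the 8 well above background on no array. Keratins of hair and epidermis that did pass the filter, such as Krt76 and Krt14, were tested without a call.

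**Figure D4:**
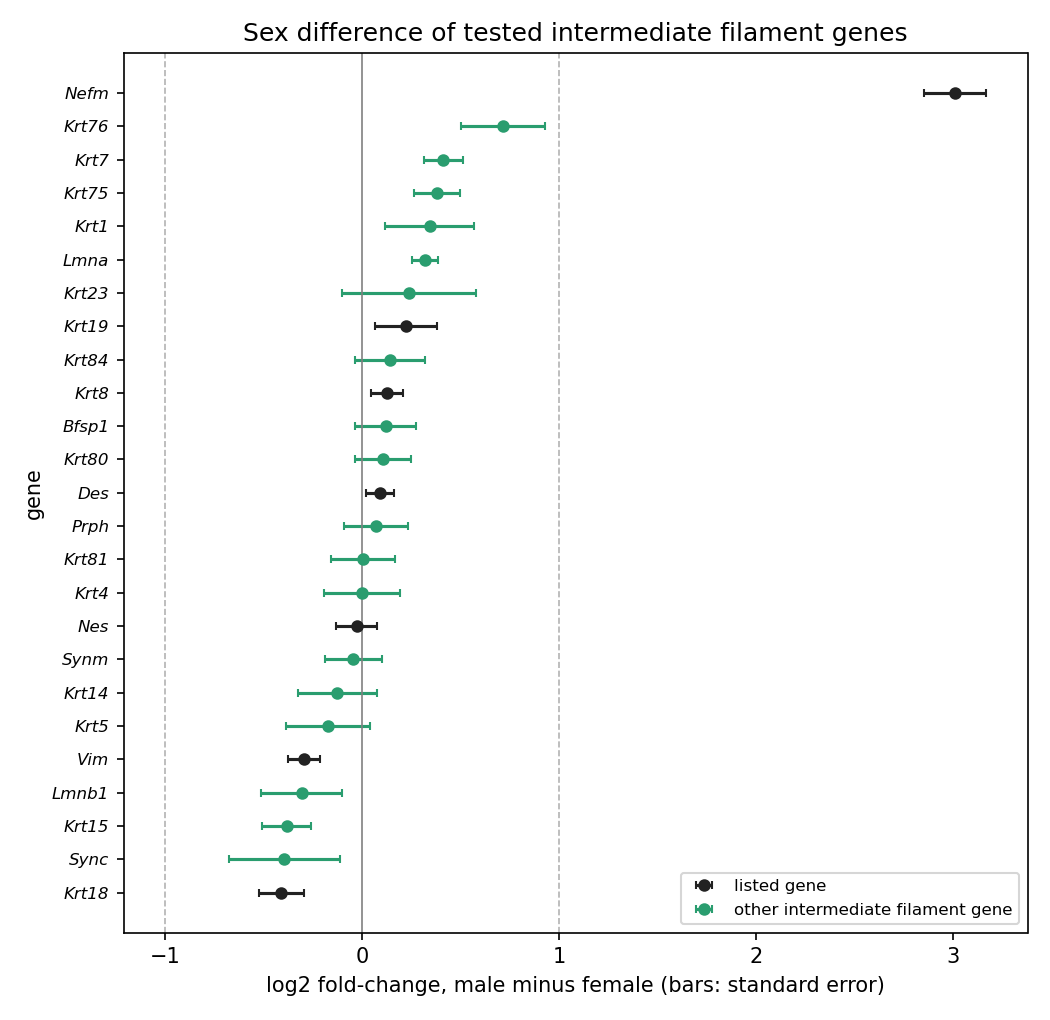
Log2 fold-change, male minus female (x axis), with its standard error as a bar, for the 7 tested genes of the list (black) and the 18 other tested intermediate filament genes (green), ordered by value (y axis), each at its brightest probe and with dashed lines at −1 and 1. Nefm lies at 3.01, and the 24 other genes lie between −0.41 and 0.72.

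Genes whose proteins tie filaments to desmosomes, to other parts of the cytoskeleton or to chaperones were measured for 13 of 23 members, and 12 were tested. Of the 12, 1 was called, beside 1.89% of all tested probes (1.09% lower in males). A count this small is not read as a result about the list. The called gene was Cryab, the small heat shock protein alpha-B-crystallin that binds desmin and vimentin filaments. Cryab read 4.14, 4.40, 3.66 and 3.35 in females 1 to 4 and 2.40, 2.08, 2.35 and 2.50 in males 1 to 4. All females lay above all males, and the log2 fold-change was −1.55 with a standard error of 0.22 (adjusted p = 0.00573 by limma), or 2.94-fold lower in males, and the call held under every alternative run. The remaining 11, among them plectin (Plec, −0.16), plakoglobin (Jup, 0.10) and plakophilin 2 (Pkp2, −0.16), did not pass the test, and the median log2 fold-change of the 12 was −0.16.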

How the data were processed

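Per the file headers, the authors deposited for each of the 8 arrays the signal intensity of 62976 spots from Agilent Feature Extraction 10.7.3.1, background-subtracted and not normalized between arrays. The authors also deposited log2 values with 1 distribution shared by all arrays and the rank order of the signal. Samples were assigned to sex and replicate by their labels. The members, the gene lists and the tests were chosen with earlier results of these data known.

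Outlier spots were dropped, each log2 signal was set relative to the 75th percentile over the 58717 non-control spots of its array, and replicate spots were averaged to 1 value per probe. Probes with more than 50% of their spots well above background on at least 4 arrays were tested (23425 of 30367). Male minus female was fitted with limma 3.58.1 (lmFit and eBayes) in R 4.3.3 without covariates, with Benjamini-Hochberg adjustment over all tested probes. The exact permutation test used the 70 assignments of 8 values to 4 and 4. The fit was tested on simulated data. Probes were named by RefSeq accession through GRCr8, and Dock5 by the study's supplementary list (name only). Where a gene had several probes, that of highest mean signal led. The text names every member, the called or else the brightest genes of 13 lists, the 5 genes most like Nefm and the neighbours of Nefm; Tubb3, Podxl, Ptpro, Krt7, Lmna and further examples were named after their values were seen.

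No spot was saturated, and 4 arrays per sex limit the precision. The alternatives were quantile normalization, the authors' log2 values, normexp background correction (offset 16), other filters on dim probes, outlier spots kept, an intensity trend with a robust prior, the replicate number or the slide row as a block, and leaving out each array. Promoter windows were read with Python 3.11.15 and pandas 2.3.3, and figures were drawn with matplotlib 3.10.9.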

Additional observations from a re-analysis of the deposited data

How the results depend on the processing

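The number of member genes called sex-dependent was 1, Nefm, under every alternative run, and the log2 fold-change of Nefm stayed between 2.90 and 3.12. Over the whole array the number of called probes was 443, between 334 (normexp background correction) and 471 (intensity trend and robust prior) under the other settings and between 355 and 495 when single arrays were left out. Called probes were higher in males in 187 and lower in 256, against 223 and 221 after quantile normalization and 223 and 223 in the authors' log2 values. Without single arrays the log2 fold-change ranged from −0.35 to −0.25 for Vim, from 0.05 to 0.12 for Des, from 0.09 to 0.18 for Krt8, from −0.47 to −0.33 for Krt18, from 0.09 to 0.31 for Krt19 and from −0.088 to 0.038 for Nes. That of Nes, which passed no test, turned its sign without female 3 (0.038), male 1 (0.018) and male 4 (0.0064). With the replicate number as a block, 372 probes and 1 member were called, and Krt18 reached an adjusted p of 0.0473. Deviations of same-numbered arrays from the mean of their sex correlated at −0.01 to 0.13, and the samples share only a number. Signal over background sets the limit for Nefl, Nefh and Ina, for which a difference between the sexes was not detectable on these arrays.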

Other observations

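Within an array, the partner genes of the list were set against each other between the sexes, a comparison chosen after the values were seen. The log2 signal of Krt18 minus that of Krt8 was 1.07 ± 0.25 in females and 0.54 ± 0.19 in males (SD, n = 4 each), so the sexes differed by −0.54, and the lowest female (0.76) lay just above the highest male (0.74). The same difference of Vim and Des was 2.55 ± 0.05 in females and 2.16 ± 0.09 in males, so the sexes differed by −0.39, with the lowest female at 2.49 and the highest male at 2.25. Each of these values compares 2 probes, so only its change between the sexes is read, and it does not depend on the scaling of the array. No p is given, since the pairs were picked for this pattern.

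With the mean of each sex removed, 5 pairs of genes were correlated over the 8 arrays, with exact permutation over all pairings within the sexes. Vim and Nes went together (Pearson's r = 0.735, p = 0.0399, adjusted 0.200; Spearman's rho = 0.833, p = 0.0278, adjusted 0.139), and r was 0.894 without the 2 arrays farthest from the median, but neither passed the adjustment over the 5 pairs. Vim and Des gave r = 0.697 (p = 0.0816, adjusted 0.204) and rho = 0.405 (p = 0.394, adjusted 0.657), and r fell to 0.229 without 2 arrays. Krt8 was not correlated detectably with Krt18 (r = −0.29, p = 0.502, adjusted 0.627; rho = −0.21, p = 0.653, adjusted 0.816; r = −0.08 without 2 arrays) or with Krt19 (r = −0.62, p = 0.170, adjusted 0.284; rho = −0.45, p = 0.347, adjusted 0.657; r = 0.06 without 2 arrays). The fifth pair, Nefm with Nefl, is not given because the Nefl probe was well above background on 0 of 8 arrays.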
